A study of Mus musculus with 18 samples.

Results

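The clustered protocadherins are 56 neighbouring genes of 34245 in the expression table. They were taken as every gene whose symbol names a member of the Pcdha, Pcdhb or Pcdhg family, without regard to its measured values. The alpha cluster had 13 members, the beta cluster 22 and the gamma cluster 21. In the GRCm38 assembly they lie side by side on the plus strand of chromosome 18, the alpha cluster from 36930184 to 37187661, the beta cluster from 37264938 to 37524479 and the gamma cluster from 37661793 to 37841873.

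RNA had been sequenced from whole mouse embryos of the FVB strain at stage E11.5, in 3 genotypes with 3 embryos each. Dnmt3b+/+ embryos carried normal alleles of the DNA methyltransferase. Dnmt3b-/- embryos carried 2 conventional knockout alleles derived from a floxed allele, and Dnmt3bCI/CI embryos 2 alleles with substitutions in the catalytic site, made to leave the protein in place without its catalytic activity, of which some remainder is not excluded. Both alleles are in the germ line and so act in all tissues, and a whole embryo mixes every cell type of that stage. Embryos came from naturally mated heterozygous mice, and which embryos were littermates is not given in the sources used here. The comparisons ask whether loss of the protein and loss of its activity leave the same mark on gene expression.

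Protocadherins are cell surface proteins of the cadherin family that neurons use to recognise themselves and each other. In the alpha and gamma clusters a row of large variable exons, each with its own promoter, is followed by a set of constant exons, so that each transcript joins 1 variable exon to the shared end. Beta members are single-exon genes with their own ends. Most members are switched on in a few neurons each, by a choice among promoters that depends on CTCF, cohesin and DNA methylation, and Dnmt3b is known for methylating these promoters in the embryo. The C-type members at the end of the alpha and gamma clusters, Pcdhac1, Pcdhac2, Pcdhgc3, Pcdhgc4 and Pcdhgc5, are set apart by more constant expression.

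The deposited values are FPKM, reads scaled to the exon length and to the size of the library. The values of the 56 members were whole numbers of reads divided by a length and a library total, and those reads were recovered, where the value of a gene with no reads stood for 0.9 reads. The library totals ran from 38451730 to 49808777 reads, which sets the precision of low members. The recovered reads showed how the clusters had been counted. Every alpha gene had been credited with the reads of the same 2860 bases of constant exons, and every gamma gene with those of 2116 constant bases. In the gamma cluster the lowest member of each library, Pcdhga1 in all 9, held 5154 to 8528 reads, and the reads of any other member consisted of that number to 65.0% or more, with a median of 97.3%. In the alpha cluster the lowest member held 159 to 627 reads, and the median over the other members was 93.8%. The lowest alpha member was Pcdha1 in the 6 Dnmt3b+/+ and labelled Dnmt3b-/- libraries and Pcdhac1 in the 3 Dnmt3bCI/CI libraries, where Pcdha1 lay 1, 6 and 11 reads above it. The 34 alpha and gamma values of the table are therefore nearly 1 measurement per cluster repeated under many names, and a count of alpha or gamma members past a threshold is not a count of independent genes. Members' own reads were obtained as the reads above the lowest member of the same library. Because both genes hold the same constant reads, this difference is the excess of the variable part over that of the lowest member. It is a lower limit of a member's own reads only where no other gene shares bases of the variable part. Pcdhgb1 and Pcdhga4 share 1038 variable bases and Pcdhgb4 and Pcdhga8 share 108, and overlaps of single members with other genes are given below. The beta members share no exons except 455 bases between Pcdhb21 and Pcdhb22, and their values are their own.

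The libraries were checked against their labels. The transcript level of Dnmt3b stood at 2.25, 1.62 and 2.04 FPKM in the Dnmt3b+/+ embryos 1 to 3, at 2.45, 3.12 and 3.33 FPKM in those labelled Dnmt3b-/- and at 2.06, 1.98 and 2.32 FPKM in the Dnmt3bCI/CI embryos. The difference between labelled Dnmt3b-/- and Dnmt3b+/+ embryos was +0.57 on the log2 scale (limma, adjusted p = 0.0248), so the level was higher, not lower, under that label. A knockout allele may still be transcribed, and which exons the deletion covers was not analysed here, so the level does not test the label, and these embryos are called labelled Dnmt3b-/- throughout. Among them embryo 1 stood apart from embryos 2 and 3. The distance between libraries over 19398 genes was 62.4 and 67.4 from embryo 1 to the others and 40.7 between embryos 2 and 3. Dnmt3b+/+ embryo 2 also stood apart, at 80.5 and 62.8 from embryos 1 and 3, which were 45.8 from each other. Neuronal markers moved with both embryos. The 16 pan-neuronal genes summed to 377, 722 and 477 FPKM in Dnmt3b+/+ embryos, to 605, 327 and 282 FPKM in those labelled Dnmt3b-/- and to 492, 574 and 562 FPKM in Dnmt3bCI/CI embryos, with no marker at 0 in any library. In whole embryos fewer neurons and less RNA per neuron cannot be told apart. The main counts of genes called in the labelled Dnmt3b-/- embryos are given with and without embryo 1.

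**Figure D1:**
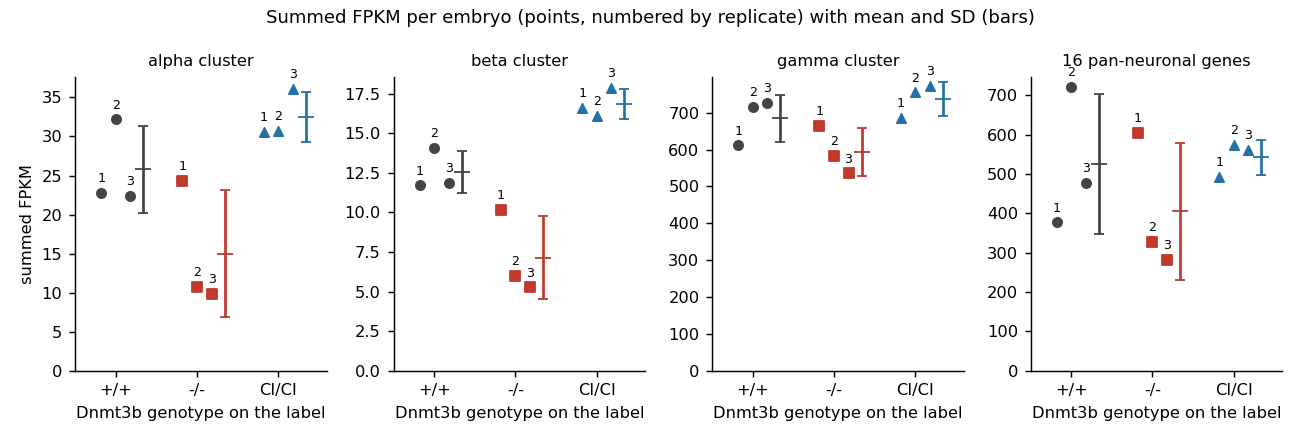
Summed deposited FPKM (vertical axis) of the alpha, beta and gamma clusters and of 16 pan-neuronal genes for each genotype on the label (horizontal axis). The alpha and gamma sums repeat the reads of the constant exons under every member. Points are embryos numbered by replicate, and bars show the mean and SD of 3 embryos. Among the embryos labelled Dnmt3b-/-, embryo 1 lies at 24.4 FPKM in the alpha cluster and embryos 2 and 3 at 10.8 and 9.87 FPKM, and embryo 1 is also the highest of the 3 for the pan-neuronal genes.

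The clusters differed widely in level. In Dnmt3b+/+ embryos the mean deposited FPKM of a member ran from 21.7 to 44.5 in the gamma cluster, from 1.26 to 2.30 in the alpha cluster and from 0.00817 to 1.37 in the beta cluster. Alpha and gamma values include the shared constant reads and beta values do not, so these ranges are unlike measures. In the same embryos the reads above the lowest member, per length, summed to a mean of 4.27 FPKM (alpha) and 43.8 FPKM (gamma). The mean beta sum was 12.6 FPKM. The highest beta members over the 9 libraries were Pcdhb17 and Pcdhb22, the lowest Pcdhb9 and Pcdhb1. Pcdhb1 had 0 to 2 reads in every library, which is under the detection limit of 3 reads per library, and was not tested. Among the members' own reads per length, the C-type members Pcdhgc3 and Pcdhac2 led their clusters in Dnmt3b+/+ embryos. Pcdhgc3 held 56.4%, 50.4% and 57.8% of the gamma cluster's reads above Pcdhga1, per length, in Dnmt3b+/+ embryos, and Pcdhac2 held 34.7%, 19.4% and 28.9% of those of the alpha cluster. The value of Pcdhgc3 cannot be separated from its antisense neighbour BC037039, which covers 1559 of its bases and had 1951 to 2451 reads in these embryos, since counting by strand is not stated. In contrast, Pcdhac1 lay at most 11 reads above the lowest alpha member in any library.

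Summed over each cluster, the deposited FPKM in the embryos labelled Dnmt3b-/- was 0.582 times that of Dnmt3b+/+ embryos in the alpha cluster, 0.568 times in the beta cluster and 0.868 times in the gamma cluster. The alpha and gamma sums repeat the constant reads under every member, so they are not on the scale of the beta sums. Summed as reads above the lowest member, per length, the ratio was 0.548 in the alpha cluster and 1.03 in the gamma cluster (exact permutation p = 0.3 and 0.9). The deposited alpha sums were 22.8, 32.2 and 22.4 FPKM in Dnmt3b+/+ embryos and 24.4, 10.8 and 9.87 FPKM in those labelled Dnmt3b-/-, and the groups overlapped through embryo 1 (exact permutation test, two-sided p = 0.3, n = 3 each). The beta sums were 11.7, 14.1 and 11.9 FPKM against 10.1, 5.99 and 5.27 FPKM. Here all labelled Dnmt3b-/- embryos were below all Dnmt3b+/+ embryos, with p = 0.1 in the exact permutation test, the smallest p that 3 against 3 embryos allow. The gamma sums of 611, 716 and 726 FPKM against 664, 582 and 535 FPKM overlapped (exact permutation p = 0.2). In Dnmt3bCI/CI embryos the beta sums of 16.6, 16.1 and 17.9 FPKM were all above those of Dnmt3b+/+ embryos, 1.34 times as high (exact permutation p = 0.1). The alpha sums of 30.6, 30.8 and 36.1 FPKM and the gamma sums of 685, 755 and 772 FPKM overlapped with Dnmt3b+/+ (exact permutation p = 0.3 and 0.4).

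Gene by gene, limma was fitted to log2(FPKM + 0.1) of 19398 genes in all 9 libraries, and a gene was called at an adjusted p below 0.05 (Benjamini-Hochberg). Differences below are on this log2 scale with their SE. For deposited values the added 0.1 FPKM makes them smaller than the true change for low genes. For reads above the lowest member, the subtraction of that member can also enlarge a ratio, so these differences are no lower limits. In the embryos labelled Dnmt3b-/- against Dnmt3b+/+, 19 of the 55 members tested were lower, where 16.4% of all genes tested were lower. None was higher, where 9.41% of all genes were, and none at an unadjusted p below 0.05, where 14.6% of all genes were. Of the 19 lower members 17 were beta genes, out of 21 tested, and the others were Pcdhac2 and Pcdhgc3. At a fold of at least 2 the count was 3, all beta genes, where 3.38% of all genes were called. Without embryo 1 of the labelled Dnmt3b-/- group the count was 43, made up of 13 alpha, 19 beta and 11 gamma members, where 23.4% of all genes were lower in that fit. Without Dnmt3b+/+ embryo 2 it was 11, of which 10 were beta genes, where 11.9% of all genes were lower. Of the 16 pan-neuronal genes 2 were lower with all embryos and 12 without embryo 1, and the part of this in the protocadherin differences was not tested.

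In 17 of the 22 beta genes the 3 labelled Dnmt3b-/- embryos lay below all Dnmt3b+/+ embryos, where 23.8% of all genes did, and the median difference of the 21 tested was -0.82 against -0.07 over all genes. Pcdhb7 had the lowest p. It stood at 1.15, 1.51 and 1.26 FPKM in Dnmt3b+/+ embryos and at 0.458, 0.417 and 0.338 FPKM in those labelled Dnmt3b-/-, embryo 1 included, a difference of -1.48 ± 0.13 (SE, adjusted p = 0.000405). Pcdhb10 fell from 0.291, 0.465 and 0.358 FPKM to 0.123, 0.157 and 0.130 FPKM, by -0.98 ± 0.15 (adjusted p = 0.00363). In both genes embryo 1 was below every Dnmt3b+/+ embryo, and for Pcdhb10 it was the lowest of all. The next by p were Pcdhb18, at 0.480, 0.534 and 0.486 against 0.284, 0.219 and 0.171 FPKM (difference -0.90, adjusted p = 0.00403), and Pcdhb13, at 0.248, 0.222 and 0.192 against 0.0541, 0.0951 and 0.0731 FPKM (difference -0.88, adjusted p = 0.00555). Each of these 4 genes separated the groups. The 2-fold calls were Pcdhb7, Pcdhb8 and Pcdhb15, at -1.48, -1.42 and -1.14. Of the 17 beta calls 9 held in all 9 fits that each left out 1 library, these 3 and the 3 others just named among them.

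With all embryos, 4 of the 21 beta genes tested were not called. Pcdhb2 stood at 0.438, 0.742 and 0.363 FPKM in Dnmt3b+/+ embryos and at 1.14, 0.418 and 0.438 FPKM in those labelled Dnmt3b-/-, with a difference of +0.24 (adjusted p = 0.639), which turned to -0.17 without embryo 1 (adjusted p = 0.612). Pcdhb17, the highest beta gene, had 1.16, 1.55 and 1.39 FPKM against 1.89, 1.07 and 0.667 FPKM (difference -0.27, adjusted p = 0.543). In these genes embryo 1 of the labelled Dnmt3b-/- group was higher than every Dnmt3b+/+ embryo. Pcdhb3 and Pcdhb5, at -0.27 and -0.49, were not called either. Without embryo 1, Pcdhb5 was called at -0.71 (adjusted p = 0.00759) and Pcdhb17 at -0.63 (adjusted p = 0.0424), and Pcdhb3 stood at -0.49 (adjusted p = 0.0511). Pcdhb22, the second highest beta gene, had 1.10, 1.20 and 1.12 FPKM against 1.01, 0.698 and 0.582 FPKM and was called at -0.55 (adjusted p = 0.0417), a call that held in 1 of the 9 fits that each left out 1 library. Pcdhb9, the lowest gene tested, had 27, 36 and 12 reads against 9, 3 and 3 (difference -0.97, adjusted p = 0.0184, called in 6 of those 9 fits). The reads of Pcdhb12 cannot be told apart from those of the antisense gene Gm37446, which covers 1927 of its bases.

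**Figure D2:**
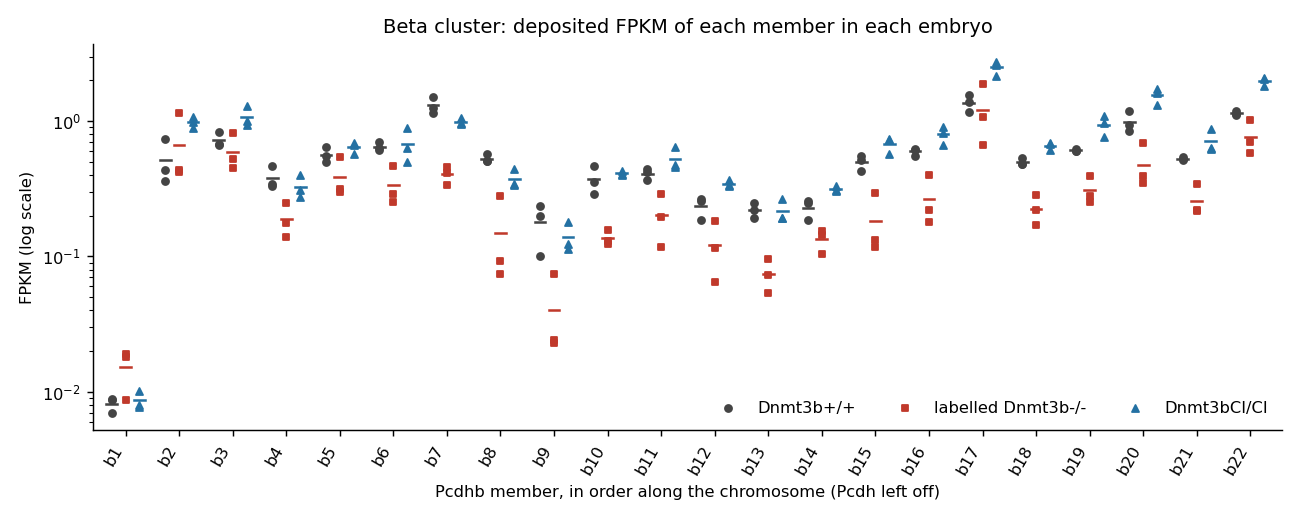
Deposited FPKM (vertical axis, log scale) of the 22 beta members (horizontal axis, in order along the chromosome) in each embryo, with a line at the mean of each genotype. In 17 members the 3 embryos labelled Dnmt3b-/- lie below all Dnmt3b+/+ embryos, and in 13 members all Dnmt3bCI/CI embryos lie above them.

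In the Dnmt3bCI/CI embryos no member was called against Dnmt3b+/+ in either direction, where limma called 0.129% of all genes higher and 0.0155% lower. At an unadjusted p below 0.05 there were 8 higher and 1 lower, all in the beta cluster, where 2.7% of all genes were higher and 2.56% lower. The beta genes mostly lay above Dnmt3b+/+, with 13 of 22 higher in all 3 embryos than in any Dnmt3b+/+ embryo (7.53% of all genes) and a median difference of +0.34 against +0.02 over all genes. Pcdhb22 had the lowest p, with 2.10, 2.06 and 1.83 FPKM and a difference of +0.75 ± 0.17 (adjusted p = 0.405), and Pcdhb17 reached 2.76, 2.16 and 2.58 FPKM (+0.83, adjusted p = 0.876). Pcdhb7 and Pcdhb8 were the 2 beta genes with all Dnmt3bCI/CI embryos below all Dnmt3b+/+ embryos, a separation seen in 5.65% of all genes. Pcdhb7 had 0.948, 1.05 and 0.966 FPKM (difference -0.37, adjusted p = 0.887) and Pcdhb8 0.339, 0.345 and 0.440 FPKM against 0.508, 0.570 and 0.505 FPKM (difference -0.41, adjusted p = 0.949). Neither difference passed the test. The pan-neuronal sums of the Dnmt3bCI/CI embryos lay within the range of the Dnmt3b+/+ embryos.

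Between the 2 mutant genotypes the differences were larger. Of the 55 members 48 were lower in the labelled Dnmt3b-/- embryos than in the Dnmt3bCI/CI embryos, against 18.2% of all genes, and in 13 alpha, 20 beta and 20 gamma members the groups did not overlap (29.5% of all genes). None was higher (9.7% of all genes), and none at an unadjusted p below 0.05 (15% of all genes). These were all 13 alpha members, 19 of 21 beta members and 16 of 21 gamma members. At a fold of at least 2 the count was 26, all alpha or beta, where 4.32% of all genes were called. Alpha members differed by -1.03 to -1.24 with adjusted p of 0.0174 to 0.0326, and gamma members by -0.27 to -0.35 with adjusted p of 0.0185 to 0.0739, with 6 gamma calls after median-of-ratios scaling and 2 with no variance trend in place of 16. Alpha and gamma values are nearly 1 measurement per cluster, as above. Pcdhb18 had the lowest p, with 0.284, 0.219 and 0.171 against 0.614, 0.674 and 0.686 FPKM (difference -1.24 ± 0.14, adjusted p = 0.00101). It was followed by Pcdhb7 at -1.11, Pcdhb19 at -1.35 and Pcdhb22 at -1.31, with adjusted p of 0.00123, 0.00123 and 0.00153. Of the 48 calls 13, all beta genes, held in all 9 fits that each left out 1 library, while each alpha call held in 3 to 6 and each gamma call in 2 to 5 of them. Without embryo 1 all 55 members were lower, where 24.8% of all genes were. Cell type markers also differed between the mutants. In the labelled Dnmt3b-/- embryos 5 of 8 neural progenitor genes were higher, 4 of 5 neural crest and early glia genes were lower, of 5 mesenchyme genes 1 was higher and 3 lower, of 6 erythroid genes 2 were higher (3 without embryo 1), and of 16 pan-neuronal genes 2 were lower, or 13 without embryo 1. Their part in the protocadherin differences was not tested. This comparison and the first share the labelled Dnmt3b-/- embryos, and both comparisons with Dnmt3b+/+ share their controls, so they are not independent of each other.

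The beta genes were also compared within their cluster, by scaling each embryo's beta values so that all embryos had the same beta sum. The level of the whole cluster drops out of this comparison. In the labelled Dnmt3b-/- embryos Pcdhb7, Pcdhb8, Pcdhb9 and Pcdhb15 then made up less of the cluster than in Dnmt3b+/+ embryos, and Pcdhb2, Pcdhb3 and Pcdhb17 more. These 4 lower and 3 higher calls among 21 lie near the shares of all genes, 16.4% and 9.54%. The other genes kept their unscaled values in that fit, so the shares are not a like measure. Pcdhb7 made up 9.84%, 10.8% and 10.6% of the beta sum in Dnmt3b+/+ embryos, 4.52%, 6.96% and 6.41% in those labelled Dnmt3b-/-, and 5.71%, 6.52% and 5.40% in Dnmt3bCI/CI embryos. Pcdhb8 made up 4.34%, 4.05% and 4.25%, then 2.77%, 1.24% and 1.75%, then 2.04%, 2.14% and 2.46%. For both genes the embryos of each mutant genotype lay below all Dnmt3b+/+ embryos. The log2 differences of the scaled values in the labelled Dnmt3b-/- embryos were -0.74 ± 0.15 for Pcdhb7 (adjusted p = 0.01) and -0.92 ± 0.19 for Pcdhb8 (adjusted p = 0.0113). The calls of Pcdhb7, Pcdhb8 and Pcdhb2 held in all 9 fits that each left out 1 library, those of Pcdhb3, Pcdhb9 and Pcdhb15 in 5 and that of Pcdhb17 in 3.

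On the other side, Pcdhb2 rose in share from 3.74%, 5.28% and 3.05% in Dnmt3b+/+ embryos to 11.2%, 6.98% and 8.32% in those labelled Dnmt3b-/- (scaled difference +1.00 ± 0.21, adjusted p = 0.0106), and it was at 6.44%, 5.56% and 5.53% in Dnmt3bCI/CI embryos. Pcdhb17 rose from 9.94%, 11.0% and 11.7% to 18.7%, 17.8% and 12.6% (+0.54, adjusted p = 0.0325). In Dnmt3bCI/CI embryos it made up 16.6%, 13.4% and 14.5%. No beta gene was called in the scaled values of the Dnmt3bCI/CI embryos against Dnmt3b+/+ (0.149% of all genes were higher and 0.0258% lower), and 3 were higher and 3 lower at an unadjusted p below 0.05 (2.77% and 2.6% of all genes). For Pcdhb7 and Pcdhb8 the scaled differences in that comparison were -0.75 (adjusted p = 0.24) and -0.73 (adjusted p = 0.545), and between the 2 mutant genotypes 0.00 and -0.18 (adjusted p = 0.989 and 0.498). Between the mutants 1 beta gene, Pcdhb5, was higher (9.7% of all genes) and 2, Pcdhb15 and Pcdhb20, were lower (17.9% of all genes) in the labelled Dnmt3b-/- embryos. The calls of Pcdhb5, Pcdhb15 and Pcdhb20 held in 5, 5 and 4 of the 9 fits that each left out 1 library. Exact permutation tests of the shares could not go below p = 0.1, which Pcdhb7, Pcdhb8 and Pcdhb2 reached in both comparisons with Dnmt3b+/+.

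In the gamma cluster single members differed between genotypes while the sum of their own reads did not separate. The sum of the variable parts, as reads above Pcdhga1 per length, was 41.2, 46.9 and 43.3 FPKM in Dnmt3b+/+ embryos, 51.7, 43.1 and 40.9 FPKM in those labelled Dnmt3b-/- and 49.0, 50.3 and 44.4 FPKM in Dnmt3bCI/CI embryos, so that the genotypes overlapped (exact permutation p = 0.9 and 0.2 against Dnmt3b+/+). All 20 gamma members with such a value share the subtracted member Pcdhga1 and so are not independent of each other. Of these 20, 11 were higher in the labelled Dnmt3b-/- embryos than in Dnmt3b+/+, against 9.51% of all genes, 5 of them by a fold of at least 2 (1.1% of all genes). In these 11 members the groups did not overlap either (15.1% of all genes). Pcdhgb6 and Pcdhgc3 were lower, where 16.4% of all genes were. Without embryo 1, 11 gamma members were also higher, and 4 were lower, with Pcdhgb7 and Pcdhgc4 added (12.2% and 23.4% of all genes in the deposited values). For none of these 11 did the deposited value of the whole gene show a rise. The deposited differences of all gamma members lay between -0.36 and -0.14.

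The 4 members with the largest rise, Pcdhga2, Pcdhga3, Pcdhgb2 and Pcdhgb4, are among the first 10 of the 21 along the chromosome. Of the same 10, Pcdhgb1, Pcdhga4 and Pcdhga6 were not called (+0.64, +0.19 and -0.30, adjusted p = 0.225, 0.612 and 0.45), and other called members lie further along. Pcdhga3 was 48, 91 and 38 reads above Pcdhga1 in the Dnmt3b+/+ embryos, 367, 284 and 247 reads in those labelled Dnmt3b-/- and 260, 242 and 226 reads in the Dnmt3bCI/CI embryos. As FPKM of its variable part this was 0.496 ± 0.180, 2.81 ± 0.634 and 2.21 ± 0.0566 (mean ± SD, n = 3 each). The log2 difference from Dnmt3b+/+ was +2.31 ± 0.21 in the labelled Dnmt3b-/- embryos (adjusted p = 0.000432) and +2.00 ± 0.21 in the Dnmt3bCI/CI embryos (adjusted p = 0.00797). Both mutant genotypes lay above all Dnmt3b+/+ embryos, and they differed from each other by +0.31 ± 0.21 (adjusted p = 0.297).

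Pcdhgb2 had 25, 67 and 22 reads above Pcdhga1 in Dnmt3b+/+ embryos, 222, 198 and 182 in those labelled Dnmt3b-/- and 154, 172 and 176 in Dnmt3bCI/CI embryos. Its differences from Dnmt3b+/+ were +2.31 ± 0.25 (adjusted p = 0.00089) and +2.02 ± 0.25 (adjusted p = 0.0202). Pcdhgb4 had 84, 85 and 28 reads, then 455, 375 and 332, then 297, 227 and 208. It was called in the labelled Dnmt3b-/- embryos (+2.51 ± 0.27, adjusted p = 0.000805) and missed the threshold in the Dnmt3bCI/CI embryos (+1.83 ± 0.27, adjusted p = 0.0534). Pcdhga2 had 9, 81 and 31 reads, then 314, 179 and 185, then 249, 244 and 212, with differences of +2.53 ± 0.45 (adjusted p = 0.00639) and +2.59 ± 0.45 (adjusted p = 0.151). In all 4 members no mutant embryo of either genotype overlapped with a Dnmt3b+/+ embryo. Whether the 2 mutant genotypes differed was tested for each, and adjusted p ranged from 0.0895 for Pcdhgb4 to 0.933 for Pcdhga2. These rises did not rest on embryo 1 of the labelled Dnmt3b-/- group, which had the most reads in each. Without it the differences were +2.14 for Pcdhga3, +2.22 for Pcdhgb2, +2.37 for Pcdhgb4 and +2.26 for Pcdhga2, and adjusted p ranged from 0.000467 to 0.00984.

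**Figure D3:**
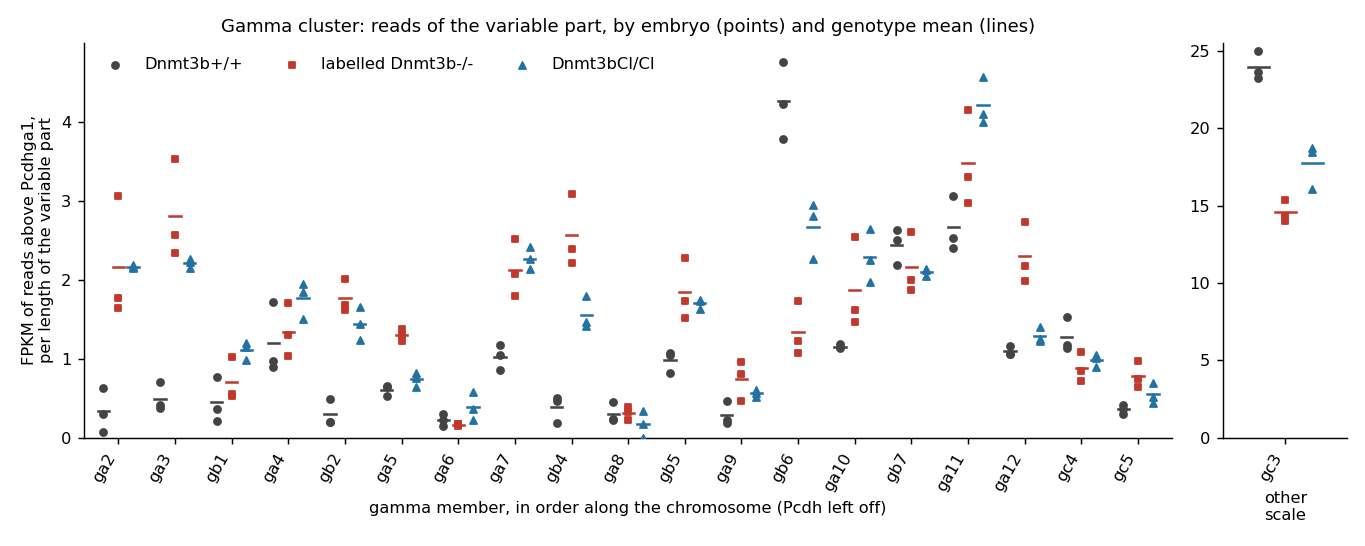
Reads above Pcdhga1 per length of the variable part, in FPKM (vertical axes), for the other 20 gamma members (horizontal axis, in order along the chromosome) in each embryo, with a line at each genotype mean. Pcdhgc3 has an axis of its own. Pcdhga2, Pcdhga3, Pcdhgb2 and Pcdhgb4 are above all Dnmt3b+/+ embryos in both mutant genotypes, and Pcdhgb6 and Pcdhgc3 are below.

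Pcdhga7 was higher in both mutant genotypes, and Pcdhga5 and Pcdhga12 were higher in the labelled Dnmt3b-/- embryos than in both other groups. Pcdhga7 stood at 1.05, 1.17 and 0.855 FPKM of its variable part in Dnmt3b+/+ embryos, at 2.51, 1.80 and 2.08 in those labelled Dnmt3b-/- and at 2.41, 2.26 and 2.13 in Dnmt3bCI/CI embryos. It was called in both (+0.98 ± 0.14, adjusted p = 0.00298, and +1.08 ± 0.14, adjusted p = 0.0287). Pcdhga12, the last of the A and B type genes, had 215, 263 and 189 reads above Pcdhga1 in Dnmt3b+/+ embryos, 496, 421 and 366 in those labelled Dnmt3b-/- and 249, 275 and 218 in Dnmt3bCI/CI embryos. The labelled Dnmt3b-/- embryos exceeded both other groups, by +1.00 ± 0.12 over Dnmt3b+/+ (adjusted p = 0.0016) and by +0.78 ± 0.12 over Dnmt3bCI/CI (adjusted p = 0.00347). Pcdhga5 showed the same order, with 0.527, 0.654 and 0.640 FPKM of its variable part, then 1.38, 1.23 and 1.30, then 0.647, 0.825 and 0.755. Its differences were +0.99 ± 0.12 and +0.74 ± 0.12 (adjusted p = 0.00157 and 0.00409). By reads above the lowest member, Pcdhga5 and Pcdhga12 were the only 2 alpha or gamma members called higher in the labelled Dnmt3b-/- embryos than in the Dnmt3bCI/CI embryos, where 9.69% of all genes were. Scaled to the same gamma sum, Pcdhgc5 was also called higher there (+0.52, adjusted p = 0.0396), in 4 of the 9 fits with 1 library left out. Of the remaining calls, Pcdhgb5, Pcdhga9, Pcdhga10 and Pcdhgc5 were higher in the labelled Dnmt3b-/- embryos by +0.83, +1.13, +0.62 and +0.94, with adjusted p of 0.00736, 0.0249, 0.044 and 0.0107. Pcdhgc5 shares 1530 bases with Gm38182, a transcript of the same strand, where other gamma members share 628. Pcdhga7 shares 536 bases with the antisense gene Gm37165. Pcdhga10 shares 2613 of the 2616 bases of its variable part with Gm26672, a transcript of the other strand that also covers 422 bases of Pcdhga12 and 771 of Pcdhgb7. Gm26672 stood at 1.70, 1.95 and 1.82 FPKM in Dnmt3b+/+ embryos and at 3.02, 2.08 and 1.95 FPKM in those labelled Dnmt3b-/-. In Dnmt3bCI/CI embryos it stood at 2.61, 2.86 and 2.53 FPKM. The reads of Pcdhga10 and Gm26672 cannot be told apart.

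Pcdhgb6 went the other way. It had 433, 609 and 426 reads above Pcdhga1 in Dnmt3b+/+ embryos, 177, 134 and 112 in those labelled Dnmt3b-/- and 324, 327 and 224 in Dnmt3bCI/CI embryos, so that the Dnmt3bCI/CI embryos lay between the other groups without overlap. The difference from Dnmt3b+/+ was -1.61 ± 0.17 in the labelled Dnmt3b-/- embryos (adjusted p = 0.000823) and -0.65 ± 0.17 in the Dnmt3bCI/CI embryos (adjusted p = 0.58), and that between the mutants -0.96 ± 0.17 (adjusted p = 0.00581). Without embryo 1 of the labelled Dnmt3b-/- group the difference from Dnmt3b+/+ was -1.80 (adjusted p = 0.000189). As a share of the gamma variable parts it was 9.16%, 10.1% and 9.78%, then 3.34%, 2.85% and 2.63%, then 5.73%, 5.85% and 5.11%. With the gamma values scaled to the same sum in each embryo, Pcdhgb6 was lower in both mutants, by -1.65 ± 0.0998 (adjusted p = 4.91e-05, the 1 gamma call beyond 2-fold lower, where 3.37% of all genes were) and by -0.78 ± 0.0998 (adjusted p = 0.0228). The first of these calls held in all 9 fits with 1 library left out and the second in 2 of them, where its difference stayed at -0.82 to -0.72.

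The C-type member Pcdhgc3 carried the largest number of reads. It stood at 3512, 3986 and 3316 reads above Pcdhga1 in Dnmt3b+/+ embryos, at 1889, 2210 and 1966 in those labelled Dnmt3b-/- and at 2802, 2739 and 2088 in Dnmt3bCI/CI embryos. Per length and library this was 24.0 ± 0.910, 14.6 ± 0.713 and 17.7 ± 1.46 FPKM (mean ± SD, n = 3 each). The fall in the labelled Dnmt3b-/- embryos was -0.71 ± 0.071 (adjusted p = 0.000594) and also passed the test in the deposited values (-0.36 ± 0.077, adjusted p = 0.012). In the Dnmt3bCI/CI embryos the difference was -0.44 ± 0.071 (adjusted p = 0.102), with all 3 below all Dnmt3b+/+ embryos, and the labelled Dnmt3b-/- embryos were lower than the Dnmt3bCI/CI embryos by -0.28 ± 0.071 (adjusted p = 0.0211, called in 6 of the 9 fits with 1 library left out), which was not called in the scaled values (-0.19, adjusted p = 0.199). The share of Pcdhgc3 in the variable parts was 27.1%, 35.6% and 35.1% in the labelled Dnmt3b-/- embryos and 37.6%, 37.2% and 36.1% in the Dnmt3bCI/CI embryos, below the 50.4% to 57.8% of Dnmt3b+/+ embryos (exact permutation p = 0.1 in each comparison, the smallest possible). BC037039, antisense to it, differed alike, with 2225, 2451 and 1951 reads, then 1229, 1381 and 1222, then 1791, 1765 and 1337, and the reads of the 2 genes cannot be told apart. The neighbouring C-type members did not move together. Pcdhgc4 had 177, 264 and 161 reads above Pcdhga1 in Dnmt3b+/+ embryos, 151, 126 and 102 in those labelled Dnmt3b-/- and 157, 157 and 120 in Dnmt3bCI/CI embryos, and its difference of -0.49 missed the threshold (adjusted p = 0.0545). Scaled to the same gamma sum it was called lower, by -0.53 (adjusted p = 0.00914), also in all 9 fits with 1 library left out. Pcdhgc5 had 91, 114 and 64 reads, then 214, 173 and 145, then 110, 166 and 109.

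**Figure D4:**
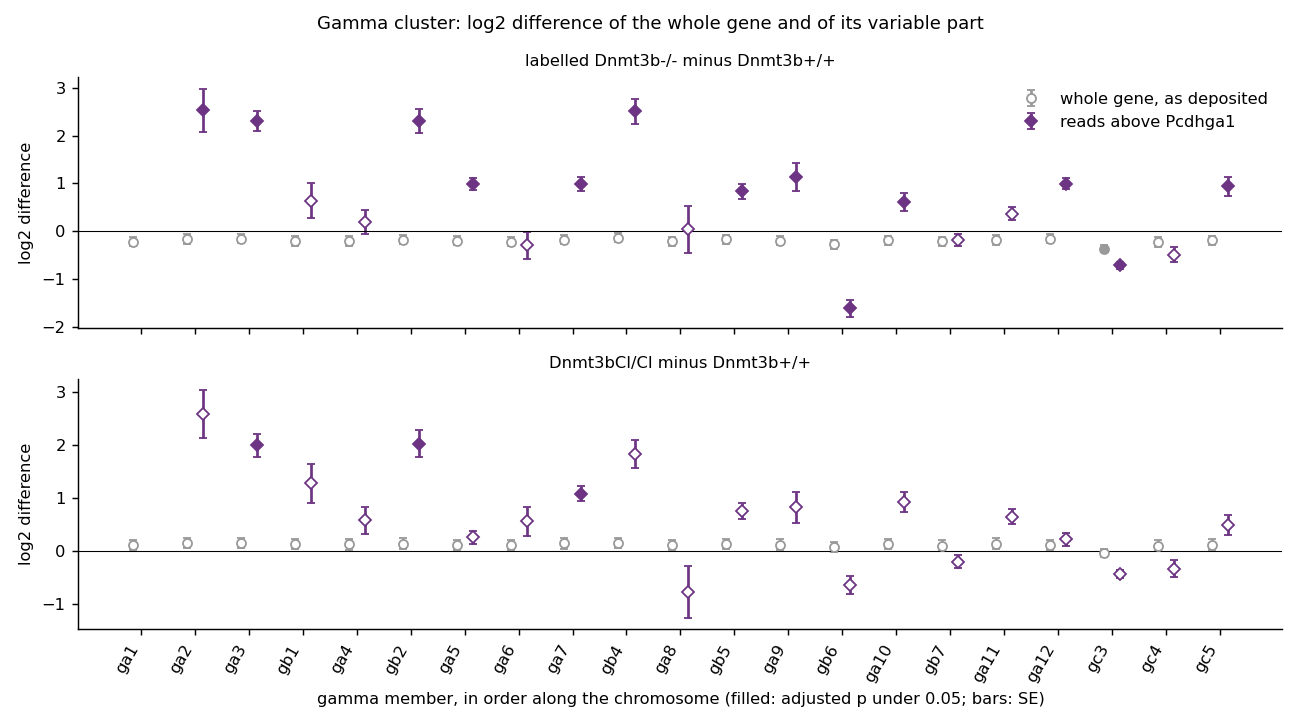
Log2 difference from Dnmt3b+/+ (vertical axis, bars are SE) of the 21 gamma members for the labelled Dnmt3b-/- embryos (upper panel) and the Dnmt3bCI/CI embryos (lower panel). Grey circles are whole genes as deposited, purple diamonds the reads above Pcdhga1, and filled symbols passed an adjusted p of 0.05. The grey circles stay between -0.36 and -0.14 in the upper panel, while the diamonds spread from -1.61 to +2.53.

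In the Dnmt3bCI/CI embryos 3 gamma members passed the test against Dnmt3b+/+, Pcdhga3, Pcdhgb2 and Pcdhga7, all higher, where 0.144% of all genes were called higher in this comparison. At an unadjusted p below 0.05 there were 12 higher and 2 lower among the 20, where 2.78% of all genes were higher and 2.58% lower. In 12 all Dnmt3bCI/CI embryos exceeded all Dnmt3b+/+ embryos (7.53% of all genes) and in 4 they were all below (5.65% of all genes), Pcdhgb6, Pcdhgb7, Pcdhgc3 and Pcdhgc4. The calls of Pcdhga3, Pcdhgb2 and Pcdhga7 held in 6, 2 and 3 of the 9 fits that each left out 1 library, and in none without a Dnmt3bCI/CI embryo, while the differences stayed at +1.85 to +2.23 for Pcdhga3 and +1.87 to +2.34 for Pcdhgb2. In the labelled Dnmt3b-/- embryos the calls of 9 of the 11 higher members and of both lower members held in every such fit, the exceptions being Pcdhga9 and Pcdhga10. By the mean FPKM of the variable part over the 9 libraries the lowest gamma members after Pcdhga1 were Pcdhga6 and Pcdhga8, although Pcdhga9 and Pcdhgb2 were below Pcdhga8 in the mean of Dnmt3b+/+ embryos. Pcdhga6 had 0.231, 0.307 and 0.146 FPKM of its variable part, then 0.144, 0.171 and 0.170, then 0.579, 0.371 and 0.229, and was called lower in the labelled Dnmt3b-/- than in the Dnmt3bCI/CI embryos (-0.85, adjusted p = 0.0476), a call that held in 3 of the 9 fits with 1 library left out and not in the scaled values (adjusted p = 0.0543). Besides Pcdhga6, Pcdhgb6 and Pcdhgc3 were the gamma members called lower in that comparison, where 18% of all genes were. Pcdhga11, the highest gamma member after Pcdhgc3 by the mean of the 9 libraries but below Pcdhgb6 in Dnmt3b+/+ embryos, had 2.40, 3.06 and 2.53 FPKM of its variable part, then 4.15, 3.31 and 2.97, then 4.09, 4.56 and 3.99, and was called in neither comparison with Dnmt3b+/+ (adjusted p = 0.0784 and 0.289). Scaled to the same gamma sum, Pcdhga11 was called higher in both, by +0.33 (adjusted p = 0.0149) and +0.52 (adjusted p = 0.0416), in 7 and 2 of the 9 fits with 1 library left out. Gm26672 covers 1381 of its bases. Pcdhgc3 made up a mean of 54.8% of the gamma sum in Dnmt3b+/+ embryos, 32.6% in those labelled Dnmt3b-/- and 37.0% in Dnmt3bCI/CI embryos. A lower share of Pcdhgc3 raises the scaled values of the other gamma members by construction.

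The alpha cluster held far fewer own reads, 196 to 897 above the lowest member per library over all members, and few single alpha genes passed the test. The lowest p was that of the C-type member Pcdhac2. It had 153, 178 and 119 reads above the lowest member in Dnmt3b+/+ embryos, 59, 45 and 44 in those labelled Dnmt3b-/- and 70, 52 and 54 in Dnmt3bCI/CI embryos. Its difference from Dnmt3b+/+ was -1.28 ± 0.14 in the labelled Dnmt3b-/- embryos (adjusted p = 0.00104) and -1.11 ± 0.14 in the Dnmt3bCI/CI embryos (adjusted p = 0.0257), where 0.0258% of all genes were called lower and 0.00516% by a fold of at least 2. All mutant embryos lay below all Dnmt3b+/+ embryos, and the mutants differed from each other by -0.17 ± 0.14 (adjusted p = 0.41). In the deposited values the fall in the labelled Dnmt3b-/- embryos was -0.94 (adjusted p = 0.0318, called in 3 of the 9 fits with 1 library left out) and the Dnmt3bCI/CI embryos stood at +0.09 (adjusted p = 0.975). The call in the Dnmt3bCI/CI embryos held in 1 of the 9 fits that left out 1 library, with differences of -1.18 to -1.03. The call in the labelled Dnmt3b-/- embryos held in all 9. Scaled to the same alpha sum in each embryo, Pcdhac2 was called in neither mutant genotype against Dnmt3b+/+ (-0.47, adjusted p = 0.21, and -1.27, adjusted p = 0.242). In those scaled values Pcdha8 was higher in the labelled Dnmt3b-/- embryos, by +1.01 (adjusted p = 0.00538), in all 9 fits with 1 library left out, although it had only 3, 8 and 1 reads above the lowest member in Dnmt3b+/+ embryos, 12, 8 and 7 in those labelled Dnmt3b-/- and 13, 18 and 22 in Dnmt3bCI/CI embryos.

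Pcdha7 had 27, 68 and 28 reads above the lowest member in Dnmt3b+/+ embryos, 12, 10 and 5 in those labelled Dnmt3b-/- and 9, 11 and 19 in Dnmt3bCI/CI embryos. It was called in the labelled Dnmt3b-/- embryos (-1.25 ± 0.29, adjusted p = 0.0162) and not in the Dnmt3bCI/CI embryos (adjusted p = 0.662), although both groups lay below Dnmt3b+/+. Above Pcdha1 in every library, the Dnmt3bCI/CI embryos had 8, 5 and 8 reads, with a difference of -1.41 (adjusted p = 0.172). With Pcdhac2 it made up the 2 alpha calls of that comparison, both lower by a fold of at least 2 (3.39% of all genes). The alpha genes Pcdha2, Pcdha4 and Pcdha9 were highest in the Dnmt3bCI/CI embryos. Pcdha9 had 36, 67 and 32 reads, then 49, 25 and 21, then 93, 77 and 71, and the labelled Dnmt3b-/- embryos differed from the Dnmt3bCI/CI embryos by -1.13 ± 0.26 (adjusted p = 0.0154). For Pcdha2 and Pcdha4 this difference was -1.70 and -1.54 (adjusted p = 0.0083 and 0.0219). With 1 library left out the calls of Pcdha2, Pcdha4 and Pcdha9 held in 9, 4 and 6 of 9 fits, and 2410 bases of Pcdha4 are shared with Gm42416. All 3 genes passed a fold of 2, where 4.26% of all genes did. Scaled to the same alpha sum in each embryo, Pcdha2 differed by -1.04 (adjusted p = 0.00407), the 1 member beyond 2-fold lower in that comparison (4.18% of all genes). Pcdha4 was also called there (-0.74, adjusted p = 0.0292), and Pcdha9 was not (-0.19, adjusted p = 0.284). Against Dnmt3b+/+ the scaled Pcdha9 was called higher in the labelled Dnmt3b-/- embryos (+0.44, adjusted p = 0.0375), in 2 of the 9 fits with 1 library left out. In the same scaled values Pcdha12 was higher in the labelled Dnmt3b-/- than in the Dnmt3bCI/CI embryos, by +0.95 (adjusted p = 0.0106, called in all 9 fits with 1 library left out), and Pcdhac2 by +0.80 (adjusted p = 0.0489, called in 3 of them). Pcdha3, the highest alpha gene after Pcdhac2 by the mean FPKM of the variable part over the 9 libraries but below Pcdha12 in Dnmt3b+/+ embryos, had 27, 100 and 22 reads, then 75, 16 and 23, then 92, 81 and 92, and embryo 1 of the labelled Dnmt3b-/- group lay above embryos 2 and 3. Without that embryo 8 alpha members were lower in the labelled Dnmt3b-/- embryos than in Dnmt3b+/+, in place of 2, where 23.4% of all genes were lower, and the pan-neuronal sums moved with the same embryo. The value of Pcdha11 rests on a counted length of 10034 bases, longer than the 5359 of its annotated exons, so its reads above the lowest member may include other sequence.

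**Figure D5:**
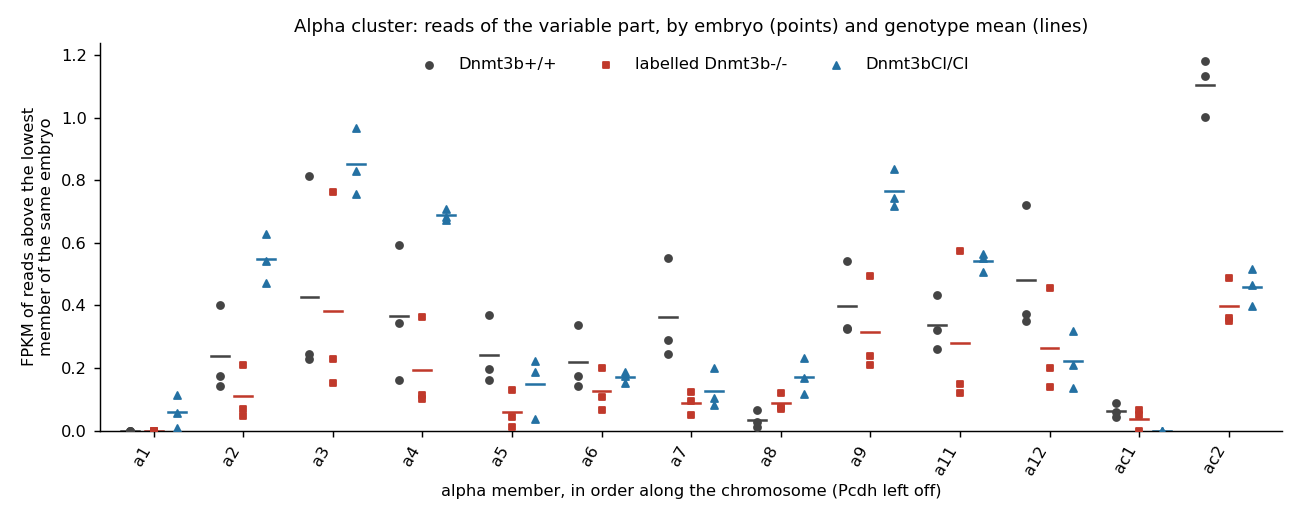
Reads above the lowest alpha member of the same embryo, per length of the variable part in FPKM (vertical axis), for the 13 alpha members (horizontal axis, in order along the chromosome), with a line at each genotype mean. Pcdhac2 lies between 1.00 and 1.18 FPKM in Dnmt3b+/+ embryos and between 0.350 and 0.515 FPKM in all mutant embryos, and embryo 1 of the labelled Dnmt3b-/- group is the highest of the 3 for Pcdha3 and Pcdha11.

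Related genes were read from lists. Of the 12 non-clustered protocadherins, single genes with their own loci, 9 were lower in the labelled Dnmt3b-/- embryos than in Dnmt3b+/+ (16.4% of all genes) and none was higher (9.41%), among them Pcdh17 at 2.39, 2.89 and 2.66 against 1.84, 1.64 and 1.82 FPKM (-0.55, adjusted p = 0.00407) and Pcdh9 at 1.25 to 1.71 against 0.562 to 0.987 FPKM (-0.91, adjusted p = 0.00966). Without embryo 1 the count was also 9, where 23.4% of all genes were lower and 12.2% higher, and these shares also belong to the counts without embryo 1 given next. In Dnmt3bCI/CI embryos none was called. Of 22 genes for promoter choice and chromatin at the locus, 21 were tested, and 2 were higher and 4 lower in the labelled Dnmt3b-/- embryos, near the shares of all genes, or 7 higher and 5 lower without embryo 1. Ctcf, whose protein binds protocadherin promoters, rose by 0.22 (adjusted p = 0.0176) and Dnmt1, the maintenance methyltransferase, by 0.37 (adjusted p = 0.00741). Among the lower genes Dnmt3a, the other de novo methyltransferase, fell by 0.27 (adjusted p = 0.032), and Tet2 and Tet3, which oxidise methylcytosine, fell by 0.51 and 0.40 (adjusted p = 0.0056 and 0.00541). In Dnmt3bCI/CI embryos none of the 21 was called.

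The counts with all embryos that follow stand beside 9.41% of all genes higher and 16.4% lower. Among 17 signalling partners and proteases of protocadherins, 1 was higher, Ptk2, and 1 lower in the labelled Dnmt3b-/- embryos, or 1 higher and 3 lower without embryo 1, and none was called in Dnmt3bCI/CI embryos. Of 14 neighbouring genes of the locus, which flank the clusters or lie between them, 2 were higher, Hars and Dnd1, and 1 was lower, Rnf14, or 7 higher and 2 lower without embryo 1, and none was called in Dnmt3bCI/CI embryos. Taf7, a single-exon gene between the beta and gamma clusters, stood at 3.95, 3.62 and 3.64 FPKM in Dnmt3b+/+ embryos, at 3.71, 4.45 and 4.62 FPKM in those labelled Dnmt3b-/- and at 3.87, 3.53 and 3.30 FPKM in Dnmt3bCI/CI embryos, with no call. Other cell type markers also moved with the labelled Dnmt3b-/- group. The 5 neural crest and early glia genes summed to 19.0, 22.0 and 25.9 FPKM in Dnmt3b+/+ embryos, 21.4, 11.1 and 7.93 in those labelled Dnmt3b-/- and 25.0, 29.0 and 29.3 in Dnmt3bCI/CI embryos, so embryo 1 again stood near the Dnmt3b+/+ level. Of these 5 genes 1 was lower in the labelled Dnmt3b-/- embryos than in Dnmt3b+/+, and all 5 were without embryo 1. Of the 8 neural progenitor genes 1 was higher in the labelled Dnmt3b-/- embryos than in Dnmt3b+/+. Of 6 erythroid genes 2 were higher (3 without embryo 1), of 5 mesenchyme genes 1 was higher and 3 lower (2 and 3 without embryo 1), and of 4 heart muscle genes none was called, with sums of 3.83 to 75.7 FPKM over the embryos. No marker of any list was called in Dnmt3bCI/CI embryos. The part of these cell types in the protocadherin values was not tested.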

How the data were processed

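RNA-seq of 9 whole embryos was used. Per the study's methods, reads were trimmed, aligned with STAR to the mm10 genome, kept above a minimum mapping quality and quantified in SeqMonk. The authors deposited FPKM values. The authors tested expression with DESeq2. The annotation release and the strand setting are not given in the sources used here, and the bisulfite libraries were not analysed here. From the deposited FPKM, whole reads were recovered for 91.5% of genes (tolerance 0.05 reads) with exon lengths of the GRCm38 annotation, where the lowest value of a gene stood for 0.9 reads. Library totals of 38451730 to 49808777 reads set the precision, and read numbers cover counting error only.

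Genes that reached 0.1 FPKM in 3 or more libraries were fitted with limma 3.58.1 in R 4.3.3 on log2(FPKM + 0.1), with 1 mean per genotype over all libraries and a variance trend, and p-values were adjusted by Benjamini-Hochberg over 19398 genes. The fit was repeated with the alpha and gamma members replaced by reads above the lowest member of their cluster, and with members scaled to their cluster sum, the latter chosen after seeing the data. Whether embryos came from separate litters is not given. Named members were the C-type members, the 2 highest and 2 lowest per cluster, and up to 4 called members with the lowest p per cluster, direction and comparison. Others were chosen after their values were seen. Members and lists were chosen with earlier results of these data known. The script was tested on simulated data. Some genes of these lists are not reported here.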

Additional observations from a re-analysis of the deposited data

How the results depend on the processing

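The 19 members lower in labelled Dnmt3b-/- than in Dnmt3b+/+ embryos became 5 with a filter of 1 FPKM, which leaves 4 beta genes tested, 12 with no filter, 11 with only those groups in the fit, 12 with a replicate block, 3 with a fold of at least 2 and 10 to 43 when 1 library was left out. The 48 members lower in labelled Dnmt3b-/- than in Dnmt3bCI/CI embryos became 22 with no filter, 20 with the replicate block, 26 with a fold of at least 2 and 13 to 55 with 1 library left out. No member was higher in Dnmt3bCI/CI than in Dnmt3b+/+ embryos, and 0 to 1 with 1 library left out. For reads above the lowest member, the 11 higher calls of the first comparison became 5 with a fold of at least 2, and the 4 lower calls 3 to 12 with 1 library left out. The 3 higher calls in Dnmt3bCI/CI embryos became 1 with no filter, 1 with only those groups, 0 with the replicate block and 0 to 4 with 1 library left out, and the 1 lower call became 0 with no filter, 0 with the block and 0 to 1 with 1 library left out. Between the mutants the 2 higher calls became 4 after quantile normalization and 0 with a fold of at least 2, and the 6 lower calls 3 with the block, 3 with a fold of at least 2 and 2 to 9 with 1 library left out. The causes were not tested.

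Replicate numbers did not pair the embryos: same-numbered embryos correlated in their deviations from the group means with r of -0.34 to 0.215.

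Among members that the rule named in the deposited values, reads above the lowest member turned the direction of several differences. Pcdhac1 turned to -0.70 for Dnmt3bCI/CI against Dnmt3b+/+ and to 0.43 between the mutants. In Dnmt3bCI/CI embryos Pcdhac1 is itself the lowest member and so at 0 by construction. Pcdhac2 (-1.11), Pcdhgc4 (-0.34) and Pcdhgb6 (-0.65) turned in Dnmt3bCI/CI against Dnmt3b+/+ embryos. Pcdhgb1 (0.64) turned in labelled Dnmt3b-/- against Dnmt3b+/+ embryos. Pcdhgc5 (0.94 and 0.45) and Pcdhgb5 (0.83 and 0.086) turned in labelled Dnmt3b-/- embryos against Dnmt3b+/+ and Dnmt3bCI/CI. Members outside that set turned too. In labelled Dnmt3b-/- against Dnmt3b+/+ embryos these included Pcdhga2, Pcdhga3, Pcdhgb2, Pcdhgb4, Pcdhga5, Pcdhga7, Pcdhga9, Pcdhga10 and Pcdhga12. In Dnmt3bCI/CI against Dnmt3b+/+ embryos they included Pcdha7. With 1 library left out, deposited differences of the genes named by the rule changed sign for Pcdhb17 in labelled Dnmt3b-/- embryos (-0.626 to 0.0629) and for Pcdhb13 (-0.128 to 0.0397), Pcdhgb6 (-0.009625 to 0.123) and Dnmt3b (-0.0152 to 0.208) in Dnmt3bCI/CI embryos, all against Dnmt3b+/+. Of the other values of named genes under settings that kept all libraries, 908 kept direction and side of the threshold, 88 lost the call and 7 gained it, and with 1 library left out these were 769, 181 and 16. The settings were pseudocounts of 0.01 and 1 FPKM, both filters, median-of-ratios and quantile normalization, only the groups compared, no variance trend, the replicate block and reads above 1 fixed member.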
